A study of Mus musculus with 6 samples.

Results

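Genes of antigen presentation by molecules of the major histocompatibility complex (MHC) were measured in RNA that co-precipitated with LARP1 from dorsal root ganglia (DRG) of mice, where the cell bodies of sensory neurons lie together with glia and other cells. They were the 7 of 16976 Ensembl gene identifiers in the count table that a fixed list of genes of the MHC class I and class II pathways named: B2m (ENSMUSG00000060802), H2-K1 (ENSMUSG00000061232), H2-D1 (ENSMUSG00000073411), Cd74 (ENSMUSG00000024610), H2-Aa (ENSMUSG00000036594), H2-Ab1 (ENSMUSG00000073421) and H2-Eb1 (ENSMUSG00000060586). All 7 had a count in at least 1 library. LARP1 binds RNA, and is best known for its hold on mRNAs whose first bases form a terminal oligopyrimidine tract. It was precipitated by antibody from lysate of wild-type DRG of 2 groups, mice with a sciatic nerve injury and uninjured mice, and the bound RNA was read as amplified nanopore cDNA. Each group had 3 libraries. The labels used here give no strain, age, sex or time after injury, and do not say whether animals were pooled. MHC genes differ between mouse strains, so the strain could bear on how their reads were assigned.

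MHC class I molecules are made of a polymorphic heavy chain, here encoded by H2-K1 and H2-D1, and the light chain beta-2 microglobulin, encoded by B2m. They carry peptides from inside the cell to its surface, and most nucleated cells make them. MHC class II molecules are alpha-beta pairs, the I-A pair from H2-Aa and H2-Ab1 and the beta chain of I-E from H2-Eb1, and are mostly made by professional antigen-presenting cells such as macrophages, dendritic cells and B cells. Cd74 encodes the invariant chain, which holds the peptide groove of new class II molecules and guides them to the endosomal pathway.

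The stretch before the start of transcription is shown for the members found in the RefSeq promoter table (5 of 7), because class I, class II and B2m promoters are known to share control elements. Each line holds the 180 bases before the annotated start, 5′ to 3′ in the direction of transcription, in the build GRCm38.p6. The regions are chr2:122147507-122147686 on the plus strand for B2m, chr17:34000334-34000513 on the minus strand for H2-K1 (the downstream one of its 2 listed starts), chr17:35262914-35263093 on the plus strand for H2-D1, chr17:34287824-34288003 on the minus strand for H2-Aa and chr17:34305687-34305866 on the plus strand for H2-Eb1. Capitals mark matches on either strand to 3 motifs. The first is CCAAT, the core of the Y box. The second is GAAA followed after any 2 bases by GAAA, a strict form of the interferon-stimulated response element (ISRE). The third is GGGA followed after any 3 bases by CCC, an NF-kappaB site of class I promoters.
B2m: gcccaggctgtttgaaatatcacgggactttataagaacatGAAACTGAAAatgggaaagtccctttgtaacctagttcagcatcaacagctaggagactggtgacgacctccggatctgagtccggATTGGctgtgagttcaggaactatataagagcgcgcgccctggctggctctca
H2-K1: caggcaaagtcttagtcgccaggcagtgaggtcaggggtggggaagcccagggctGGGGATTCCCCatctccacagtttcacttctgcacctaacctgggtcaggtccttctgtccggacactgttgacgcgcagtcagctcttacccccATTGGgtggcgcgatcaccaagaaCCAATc
H2-D1: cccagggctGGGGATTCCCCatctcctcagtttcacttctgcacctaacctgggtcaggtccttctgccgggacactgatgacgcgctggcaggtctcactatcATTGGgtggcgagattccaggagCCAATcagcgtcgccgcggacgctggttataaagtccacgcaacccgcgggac
H2-Aa: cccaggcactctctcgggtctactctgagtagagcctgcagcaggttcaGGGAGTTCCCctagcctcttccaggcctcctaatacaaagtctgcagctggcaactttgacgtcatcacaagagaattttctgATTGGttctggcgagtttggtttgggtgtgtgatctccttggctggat
H2-Eb1: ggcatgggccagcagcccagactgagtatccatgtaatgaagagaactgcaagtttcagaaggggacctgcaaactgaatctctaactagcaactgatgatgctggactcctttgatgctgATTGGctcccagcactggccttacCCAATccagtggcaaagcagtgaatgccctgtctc

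Each of the 5 genes held CCAAT on at least 1 strand in the 250 bases before its start, a motif that 33.8% of 32851 promoters in the table also held. The match to the strict ISRE motif lay in the B2m promoter, and 2.98% of all promoters had it. Looser forms of this element were not searched, so its lack in the other promoters was not shown. H2-K1, H2-D1 and H2-Aa matched the NF-kappaB motif, against 4.77% of all promoters. Each of these 3 places matched on both strands, with 2 hits that overlapped. Other spacings of this motif were not searched, so its lack in the B2m and H2-Eb1 promoters was not shown. The first 15 transcribed bases were tttcagtggctgcta for B2m, agtgtcgccgcggac for H2-K1, tcagacacccgggat for H2-D1, cctcacaatctcttg for H2-Aa and ttattatcttagcaa for H2-Eb1. None of these annotated starts, nor the other one of H2-K1, opened with a C and at least 4 pyrimidines after it. These are the letters of an oligopyrimidine tract, with which 2.51% of all listed starts opened. Annotated starts were not checked against reads. The plus-strand CCAAT lay at -6 to -2 in H2-K1 but at -53 to -49 in H2-D1, so the first bases of the H2-K1 mRNA are uncertain.

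B2m, the light chain shared by class I molecules, stood higher in the injured precipitate. Uninjured libraries 1, 2 and 3 gave 1, 2 and 3 counts of it, or 8.60, 17.2 and 25.8 counts per 1000000 of the library total (CPM). The injured libraries gave 12, 13 and 11 counts, or 56.6, 61.5 and 52.0 CPM. Every injured library lay above every uninjured one. With the libraries of a group summed, the uninjured level was 17.2 CPM (interval 6.31 to 37.4, 95% exact Poisson), and the injured level was 56.7 CPM (39.7 to 78.5). The ratio of injured to uninjured CPM was 3.30 (95% exact Clopper-Pearson interval 1.38 to 9.58).

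The counts of a group were summed because its libraries differed by little more than counting noise, with a variance between libraries 1.16 times (uninjured) and 1.12 times (injured) that of counting. They were counted as 1 sample per group. No difference here therefore has a replicate check, and injury and any batch in which a group was handled cannot be told apart. No p-value is printed for a single gene, and the calls of count tests given further on compare the reads of 2 samples, not the conditions. The uninjured libraries held 116186 to 116608 counts and the injured ones 211337 to 211879. A floor of 3 counts over a summed group corresponds to 8.60 CPM without and 4.73 CPM with injury. All intervals cover counting error only. Amplified reads without molecular identifiers are not independent molecules, so the intervals may be too narrow even for that error.

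**Figure D1:**
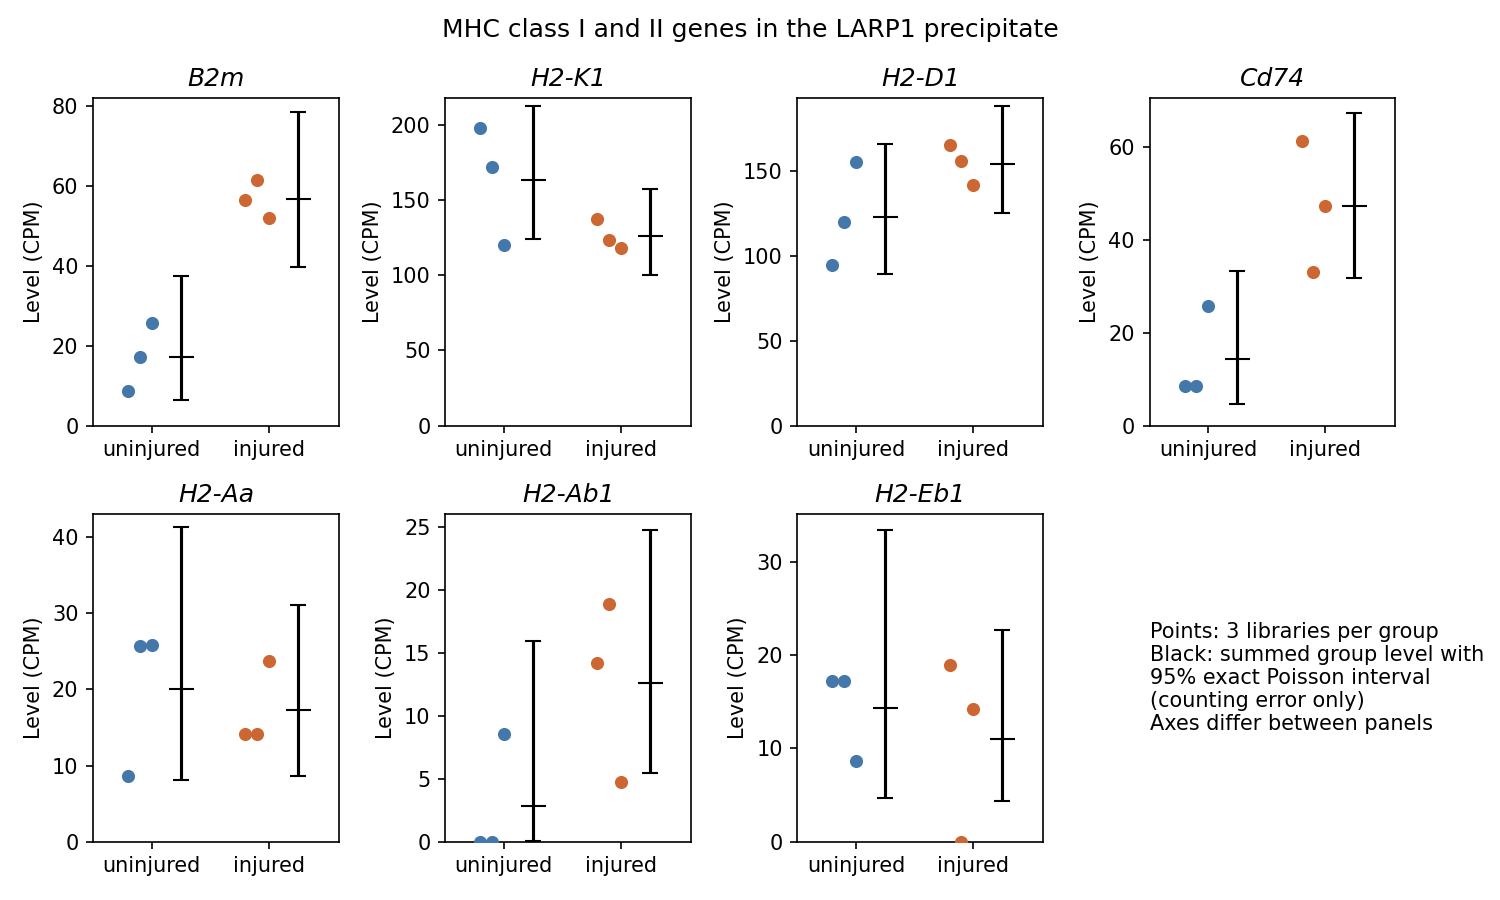
Level of each gene in CPM of the library total, with 3 libraries per group as points and the summed group level with its 95% exact Poisson interval in black. The injured points of B2m and Cd74 lie above all uninjured points, while the points of the other 5 genes overlap; the vertical axes differ between panels.

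For the class I heavy chains no difference between the groups was shown. H2-K1 had 23, 20 and 14 counts without injury (198, 172 and 120 CPM) and 29, 26 and 25 counts with injury (137, 123 and 118 CPM). The groups overlapped, and the third uninjured library lay among the injured ones. The summed level was 163 CPM (124 to 212) in uninjured and 126 CPM (100.0 to 157) in injured ganglia, a ratio of 0.772 (0.543 to 1.10). H2-D1 had 11, 14 and 18 counts without injury (94.6, 120 and 155 CPM) and 35, 33 and 30 counts with injury (165, 156 and 142 CPM). Its groups overlapped too, again through the third uninjured library. Summed, H2-D1 stood at 123 CPM (89.2 to 166) in uninjured and 154 CPM (125 to 188) in injured ganglia, a ratio of 1.25 (0.867 to 1.84). Both intervals include 1.

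H2-K1 and H2-D1 are close paralogs, and the counting program shares ambiguous reads between similar transcripts by estimation, so their split is uncertain. The sum of both does not depend on how reads were divided between them. It was 287 CPM (233 to 348; 100 counts) without injury and 280 CPM (241 to 325; 178 counts) with injury. The ratio of 0.979 had an interval of 0.762 to 1.26, so that counting error leaves room for a difference of up to 1.31-fold lower or 1.26-fold higher. The share of H2-D1 in the counts of both was 43.0% (95% exact interval 33.1% to 53.3%) without and 55.1% (47.4% to 62.5%) with injury. The ratio of H2-D1 was 1.62 times that of H2-K1, with an interval of 0.962 to 2.74 that includes 1.

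B2m was also set against the heavy chains, whose summed ratio was 0.979. This uses the same B2m counts as above and is no separate support. B2m made up 6 of 106 counts of B2m, H2-K1 and H2-D1 without injury (5.66%, 2.11% to 11.9%). With injury it made up 36 of 214 (16.8%, 12.1% to 22.5%). Its ratio of injured to uninjured levels was 3.36 times that of the heavy chains (95% conditional exact interval 1.34 to 10.1). This was 1 of 6 such comparisons between members, whose intervals were not widened for their number.

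**Figure D2:**
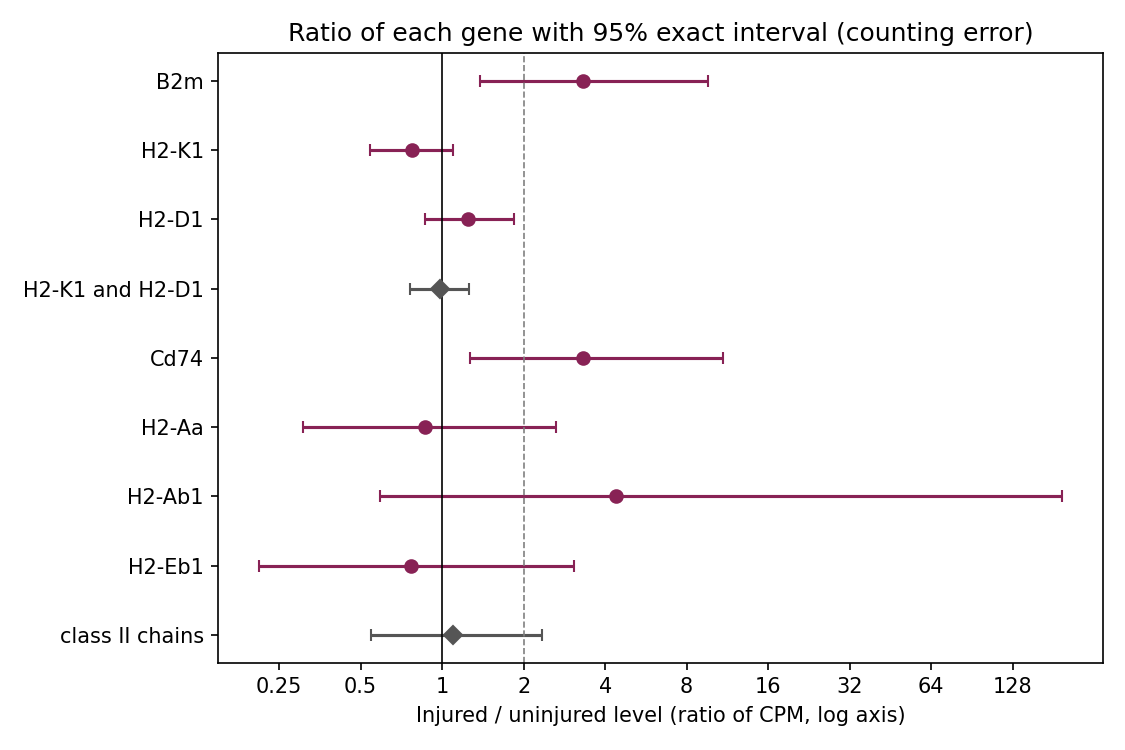
Ratio of injured to uninjured CPM on a log axis for the 7 genes (circles) and for the sums of the class I heavy chains and of the 3 class II chains (diamonds), with 95% exact intervals that cover counting error only. The intervals of B2m and Cd74 lie above 1, and the interval of H2-Ab1 runs from 0.590 to 195 because it had 1 uninjured count.

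Cd74, the invariant chain, had a higher level after injury. Its counts were 1, 1 and 3 without injury (8.60, 8.58 and 25.8 CPM) and 13, 7 and 10 with injury (61.4, 33.1 and 47.3 CPM). The groups did not overlap. Summed, uninjured Cd74 stood at 14.3 CPM (4.65 to 33.4) and injured at 47.3 CPM (31.9 to 67.5), a ratio of 3.30 with an interval of 1.27 to 10.9. The result rests on 5 uninjured counts. The interval took in 1 without the first uninjured library (2.75, 0.970 to 10.7), without the second (2.75, 0.968 to 10.7) and without the first injured library (2.81, 0.994 to 9.73). Without the third uninjured library the ratio was 5.50 (1.40 to 47.5). The interval of B2m stayed above 1 with each of the 6 libraries left out in turn, with ratios of 2.64 to 4.40.

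The class II chains were near the limit of what this depth can count. H2-Aa, the alpha chain of I-A, had 1, 3 and 3 counts without injury (8.60, 25.7 and 25.8 CPM) and 3, 3 and 5 with injury (14.2, 14.2 and 23.7 CPM). Summed, H2-Aa stood at 20.1 CPM (8.06 to 41.3) in uninjured and 17.3 CPM (8.65 to 31.0) in injured ganglia, a ratio of 0.864 (0.306 to 2.63). H2-Eb1, the beta chain of I-E, had 2, 2 and 1 counts without and 4, 0 and 3 with injury. Its ratio was 0.770 (0.210 to 3.08), and the second injured library, with no count, lay below all others. H2-Ab1, the beta chain of I-A, had 0, 0 and 1 counts without and 3, 4 and 1 with injury. Its ratio of 4.40 had an interval of 0.590 to 195, and its groups overlapped because the third injured library (4.73 CPM) lay below the third uninjured one (8.61 CPM). Its single uninjured count was in that library, and without it the 0 uninjured counts gave no fold, since the injured level lay at about that of the floor of 3 counts.

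Summed, the 3 class II chains had 13 counts without and 26 with injury, or 37.2 CPM (19.8 to 63.7) and 41.0 CPM (26.8 to 60.0). The ratio was 1.10, with an interval of 0.545 to 2.33 that includes both 1 and 2. Cd74 made up 27.8% (9.69% to 53.5%) of the counts of Cd74 and the class II chains without injury and 53.6% (39.7% to 67.0%) with injury. Its ratio was 2.96 times that of the chains, with an interval of 0.846 to 12.1, so a difference between Cd74 and the chains was not shown. Against the class I heavy chains, the ratio of Cd74 was 3.36 times theirs (1.24 to 11.4), which again rests on the same Cd74 counts. B2m and Cd74 had the same ratio, and one over the other was 1.00 (0.229 to 4.58), an interval too wide to call them alike.

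Together the 7 genes held 124 of 349027 counts without injury (0.0355%) and 270 of 634615 with injury (0.0425%). Their summed level had a ratio of 1.20 (0.965 to 1.49). The make-up of these counts differed more than their sum. H2-K1 and H2-D1 held 80.6% of them (72.6% to 87.2%) without injury and 65.9% (59.9% to 71.6%) with injury. B2m went from 4.84% (1.80% to 10.2%) to 13.3% (9.52% to 18.0%), and Cd74 from 4.03% (1.32% to 9.16%) to 11.1% (7.62% to 15.5%). The intervals without and with injury overlap for B2m and for Cd74. The class II chains held 10.5% (5.70% to 17.3%) and 9.63% (6.39% to 13.8%). Cd74 and the class II chains together held 14.5% (8.84% to 22.0%) and 20.7% (16.1% to 26.1%), intervals that overlap. These are shares of counts and not of molecules per transcript length, and levels of different genes are not ranked here because transcript lengths were not used.

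**Figure D3:**
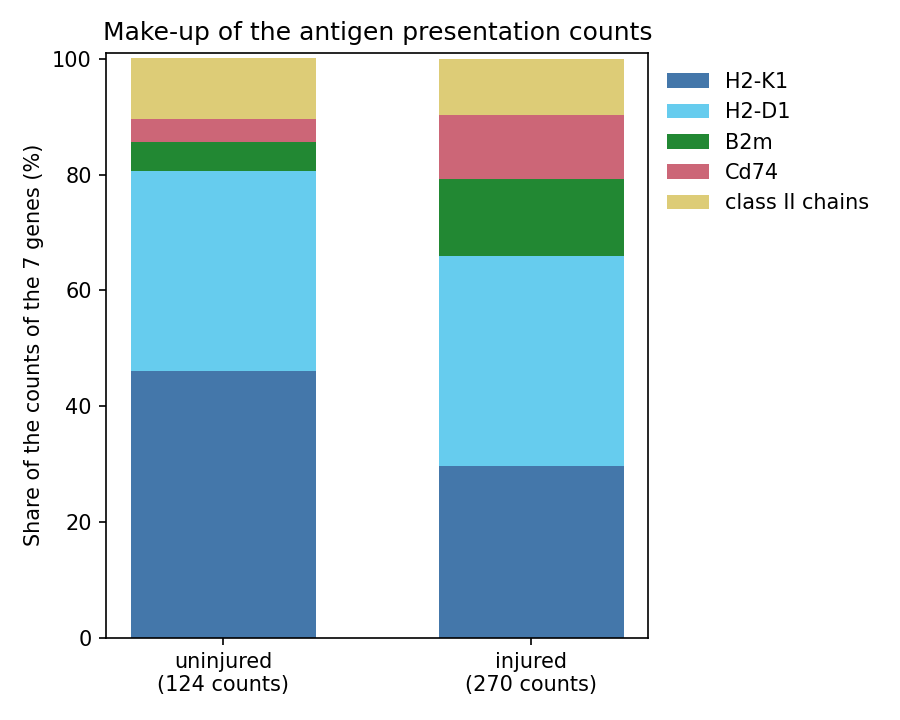
Share of the summed counts of the 7 genes held by H2-K1, H2-D1, B2m, Cd74 and the 3 class II chains, in percent, for the uninjured group (124 counts) and the injured group (270 counts). The bands of B2m and Cd74 are wider in the injured bar. H2-K1 takes up 46.0% of the bar without injury (37.0% to 55.1%) and 29.6% with it (24.2% to 35.5%). Shares of one bar depend on each other, the split of H2-K1 from H2-D1 is uncertain, and the interval of the H2-K1 ratio includes 1.

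The members were also set beside all genes of the table, and 7 are too few to set the list apart by a count. With a group of 0 counts set to 3, 3 of the 7 members (B2m, Cd74 and H2-Ab1) were past 2-fold higher and 0 past 2-fold lower. Of the 10470 genes with a mean of the group levels of at least 5 CPM, a minimum all 7 members reach, 24.2% were past 2-fold higher and 18.4% past 2-fold lower. An interval above 1 was seen for 2 members, and for 21.3% of these genes, while 15.7% had one below 1. Every injured library lay above every uninjured one for 2 members and for 26.9% of the genes, and below for 0 members and 16.4%. The median log2 ratio was 0.33 over the members and 0.14 over all these genes, whose quartiles were -0.70 and 0.94. The log2 ratios of B2m and Cd74, both 1.72, were above those of 88.1% of the genes, and that of H2-K1, -0.37, above those of 33.5%.

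**Figure D4:**
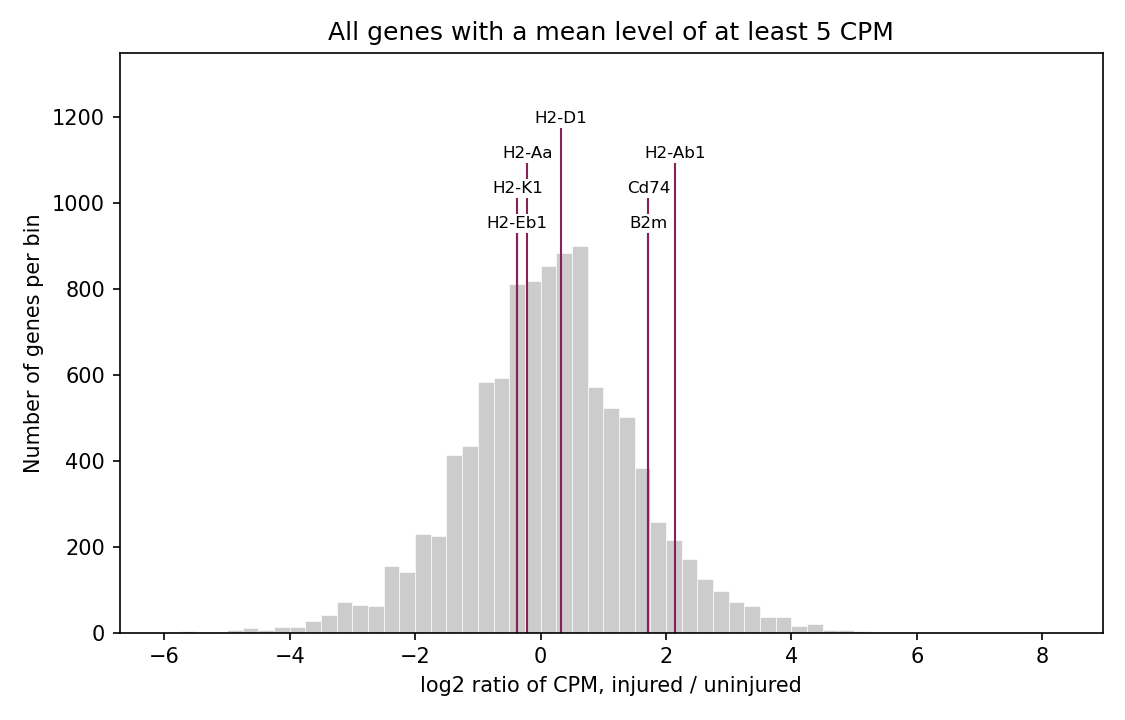
Number of genes per bin of the log2 ratio of injured to uninjured CPM, for the 10470 genes with a mean level of at least 5 CPM, with lines at the values of the 7 members. B2m and Cd74 lie at 1.72 and H2-Ab1 at 2.14, in the upper flank, and the other 4 lie between -0.38 and 0.33, near the centre.

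In edgeR's quasi-likelihood test with a Benjamini-Hochberg threshold of 0.05, a comparison of the reads of these 2 samples, 2 of the 7 members passed the filter on low counts. These were H2-K1 and H2-D1, and 0 of them were called, also at an unadjusted p under 0.05. Of the 3158 genes tested, 24.9% were called higher and 22.1% lower. Without the filter all 7 members were tested and B2m alone was called, as higher. In that fit 7.16% of 13236 genes were called higher and 4.40% lower. DESeq2 tested 6 members and called 0, with 9.29% of 8618 genes called higher and 6.95% lower. B2m is thus called by 1 of these 2 tools that tested it, and no member was called lower by either.

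No total RNA or control precipitate was analysed here, so the values are levels of RNA in the LARP1 precipitate and not enrichment by LARP1. In whole ganglia, fewer or more cells of a type and less or more RNA per cell cannot be told apart. Markers of macrophages, other immune cells, neurons and glia, and further genes of antigen processing and of the interferon response, were not analysed here, because the gene table used pairs 0 Ensembl identifiers with symbols; their part in the results, and the labelled tissue, were not tested.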

How the data were processed

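RNA from LARP1 precipitates of DRG was measured in 3 injured and 3 uninjured libraries. Per the labels' protocols, column-purified RNA went into a cDNA-PCR barcoding kit for nanopore sequencing. The authors deposited estimated counts for each Ensembl gene, without normalization; all were whole, so rounding changed none. The tools were minimap2 and Salmon with GRCm39 (mm39), per the submitters' processing notes, and their versions, the annotation and any filter were not given in the sources used. Groups and replicate numbers came from the sample titles, and columns were matched by library name, with 0 columns left unused.

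Members were taken by identifier, with the symbols of the list that named them, and all were described. The members, lists and tests were chosen with earlier results of these data known. Levels are CPM of full column totals, and ratios were computed from summed counts with 95% exact intervals (SciPy 1.17.1). The 5 CPM minimum, the interval criterion and the sums over members were chosen after seeing the data. edgeR 4.0.16 (R 4.3.3) was run on all genes with TMM and filterByExpr, and DESeq2 1.42.0 was an alternative, as were other scalings and filters, the replicate block and leaving out each library. The edgeR script was tested on simulated data. Promoter sequences are RefSeq's, of GRCm38.p6, a build other than that of the counts, and matched by symbol.

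By the rule for further names, the 2 other genes most like the summed class II chains were taken from the 3478 with at least 50 counts.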

Additional observations from a re-analysis of the deposited data

How the results depend on the processing

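No ratio of a member left the 95% interval of its value under the other 3 scalings or with any library left out. This is a weak check, because the intervals are wide and the settings share most of their counts. The ratios of B2m and Cd74 were above 2 in each setting. With TMM or DESeq2 size factors both were 3.14, and with totals over the genes passing filterByExpr both were 3.39. Leaving out each library gave 2.64 to 4.40 for B2m, 2.75 to 5.50 for Cd74, 0.683 to 0.863 for H2-K1, 1.12 to 1.44 for H2-D1, 0.673 to 1.01 for H2-Aa and 0.495 to 1.15 for H2-Eb1. For H2-Ab1 it gave 0.978 to 5.77, where the lowest value is the injured level over the floor of 3 counts. It gave 2 to 3 members past 2-fold higher and 0 to 1 past 2-fold lower, the latter H2-Eb1 without the first injured library. edgeR called 0 to 1 members higher, B2m without the third uninjured library (and 1 without a filter), and 0 lower; it called 638 to 836 genes higher and 582 to 756 lower. The share of Cd74 and class II chains was 12.3% to 16.5% without and 19.3% to 22.8% with injury.

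Among all genes with at least 50 CPM, the number past 2-fold lower differed with the totals used. With TMM size factors, 589 were past 2-fold higher and 545 lower. TMM effective sizes rest on totals over genes passing filterByExpr and were smaller (94382 against 116233 counts for the first uninjured library). They raise every CPM, so more genes reached the minimum, and the effect of scaling on the ratios was not separated from this. With full column totals, the numbers were 542 and 391 (539 to 564 and 395 to 406 with a library left out). These were 1309 and 903 at 20 CPM and 2532 and 1924 at 5 CPM, where more genes were counted; at 5 CPM, 2235 and 1644 had intervals above and below 1. The replicate block gave 750 genes higher and 677 lower of 3158 tested, against 786 and 699 without it. Of the members, that fit tested only H2-K1 and H2-D1 and called 0. Deviations of same-numbered libraries correlated at -0.04 to 0.01. These deviations are mostly counting noise, so the correlations cannot show whether the numbers pair the libraries. The numbers were not taken to pair them. With totals over the genes passing filterByExpr and no TMM, 927 genes were called higher and 610 lower, of 3158 tested. Without a filter the numbers were 948 and 582, of 13236 tested. Depth limits B2m, Cd74 and the class II chains, with 1 to 7 uninjured counts each.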

Other observations

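The genes nearest to the summed class II chains in log2(CPM + 1), centred on the mean of the 6 libraries, were ENSMUSG00000036446 and ENSMUSG00000063888, at root mean square distances of 0.0991 and 0.115. ENSMUSG00000036446 had 6, 10 and 10 uninjured counts and 20, 13 and 21 injured ones. ENSMUSG00000063888 had 8, 13 and 15 counts and 26, 16 and 23 counts. The libraries form 1 sample per group, so this likeness covers little more than the ratio between 2 samples, and the identifiers were not paired with symbols.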
